A study of Mus musculus with 3 samples.

Results

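Mast cell proteases were followed through 3 mouse melanomas as 8 genes, Cma1, Cma2, Mcpt1, Mcpt4, Mcpt9, Tpsb2, Tpsab1 and Cpa3. They were picked by name out of the 36530 features of the count tables, and each of the 8 had counts in the mast cells of every tumor. The counts are unique molecular identifiers (UMIs), in which reads that copy the same captured RNA are collapsed to 1. The tumors came from mice that carried, among their alleles, Braf LSL.V600E and the transgene Tyr.CreER on a C57BL/6 background, in which 4-OH tamoxifen on the flank skin switches on mutant Braf where the Tyr promoter drives the recombinase, that is in melanocytes. Some animals of the study also carried the Rosa26 LSL.tdTomato reporter. The labels do not say which animals these were, nor their ages. There was 1 tumor per group: untreated, regressed under vemurafenib, an inhibitor of mutant Braf, and progressed under vemurafenib. With 1 tumor per group there is no replicate check, no test between groups is possible, and every interval below covers counting error only.

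Mast cells store their proteases in secretory granules, bound to the proteoglycan serglycin, and release them when they are triggered. Mouse mast cells are classed by what they store. The connective tissue type, which is the mast cell of skin, holds the chymases Mcpt4 and Cma1, the tryptases Tpsb2 and Tpsab1 and the carboxypeptidase Cpa3, whereas the mucosal type, known from the gut, holds the chymases Mcpt1 and Mcpt2. Mcpt9 is known from mast cells of the uterus. Cma2 is a further gene of the chymase family, and no type is assigned to it here. Tpsab1 is a special case, since the C57BL/6 allele is known for a splice site defect and RefSeq lists it as a transcribed pseudogene.

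The proteases lie in 3 places in the mouse genome (positions from RefSeq, GRCm38.p6). The chymase genes share a cluster on chromosome 14, with Cma1 (Entrez ID 17228) at chr14:55941451-55944675, Cma2 (545055) at chr14:55950980-55989785, Mcpt1 (17224) at chr14:56017964-56020391, Mcpt9 (17232) at chr14:56026864-56030495 and Mcpt4 (17227) at chr14:56059744-56062310. The tryptases are neighbours on chromosome 17, Tpsab1 (100503895) at chr17:25343245-25345562 and Tpsb2 (17229) at chr17:25366308-25368096. Cpa3 (12873) stands apart at chr3:20215616-20242209. RefSeq promoter sequences were matched for 5 of the 8, Cma1, Mcpt1, Mcpt4, Mcpt9 and Cpa3. Shown here are the 150 bases before the start of Mcpt1 and Mcpt4, because these promoters are nearly the same and the levels of the genes are not, and of Cpa3, which lies on another chromosome. Capitals mark TATAAA on the gene's strand and the GATA forms on either strand (A or T followed by GATAA or by GATAG), the letters that the mast cell factors Gata1 and Gata2 are known to read. The windows are chr14:56017814-56017963 on the plus strand for Mcpt1, chr14:56062311-56062460 on the minus strand for Mcpt4 and chr3:20242182-20242331 on the minus strand for Cpa3, each printed 5′ to 3′. The Cpa3 window reaches into the gene as placed above, which extends to 20242209. Its start is therefore that of the matched promoter sequence and not the edge of the listed gene.
Mcpt1: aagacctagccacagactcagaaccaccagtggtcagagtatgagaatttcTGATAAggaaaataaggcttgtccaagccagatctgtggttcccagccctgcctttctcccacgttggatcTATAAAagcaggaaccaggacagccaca
Mcpt4: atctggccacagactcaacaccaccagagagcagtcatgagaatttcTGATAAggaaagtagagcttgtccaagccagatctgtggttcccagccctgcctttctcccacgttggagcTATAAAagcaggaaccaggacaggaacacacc
Cpa3: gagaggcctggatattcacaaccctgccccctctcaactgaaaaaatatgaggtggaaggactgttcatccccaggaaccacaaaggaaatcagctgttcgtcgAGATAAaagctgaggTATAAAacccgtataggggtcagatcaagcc

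The Mcpt1 and Mcpt4 stretches were 85.9% identical when aligned end to end. The 9 other pairs among the 5 promoters were 46.8% to 54.1% identical. TGATAA began 99 bases before the start of Mcpt1 and 103 bases before that of Mcpt4, and TATAAA began at 28 and 32 bases. In Cpa3 the GATA form was AGATAA, 46 bases before the start of the matched promoter sequence, with TATAAA at 31 bases. In none of the 3 did the marked letters overlap. Cma1 held CTATCT, the reverse complement of AGATAG, and no TATAAA. Mcpt9 held neither a GATA form nor TATAAA. Of all 27025 promoters in the RefSeq table, 16.3% held a GATA form in the same 150 bases and 5.26% held TATAAA, against 4 and 3 of the 5 proteases. A match of letters is a description and not a binding site.

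There were 4095 cells in the library of the untreated tumor, 3726 in that of the regressed and 4849 in that of the progressed. The deposited Mastcells cluster held 16, 106 and 85 of them, which is 0.391%, 2.84% and 1.75% of cells, with 60441, 329067 and 297322 UMIs. The median mast cell had 3070.5, 2421.5 and 2984 UMIs, so the regressed library was the shallowest. It also stood apart in Xist, at 0.403 CPM (UMIs scaled to a total of 1e+06) against 1494 and 1735 CPM, and in haemoglobin RNA (Hbb-bs at 13269 CPM against 942 and 31.0 CPM), so that animal, library and response cannot be told apart. The cluster name was checked against 8 mast cell markers that are not proteases. All 8, Kit, Fcer1a, Ms4a2, Hdc, Gata2, Il1rl1, Cyp11a1 and Slc18a2, were detected in every tumor, and every cell of the cluster carried at least 1 of their UMIs. They summed to 14642, 12475 and 14906 CPM in Mastcells, against 113, 169 and 16.5 CPM outside. Of the sums outside, Hdc alone gave 101, 82.4 and 3.53 CPM. The 4 basophil markers, Mcpt8, Prss34, Cd200r3 and Itgb7, summed to 2052, 936 and 837 CPM in Mastcells, against 17.98, 80.8 and 16.02 CPM outside, and were seen in 15 of 16, 87 of 106 and 70 of 85 mast cells. Mcpt8, known from basophils, was at 0, 5 and 1 UMIs among them. The 5 fibroblast markers summed to 7760 CPM in the untreated, 3862 CPM in the regressed and 1957 CPM in the progressed Mastcells. Outside they summed to 29267, 21093 and 30813 CPM.

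The 8 proteases together reached 134611 CPM (95% exact Poisson interval 131701 to 137568) in the untreated, 114615 CPM (113461 to 115778) in the regressed and 114721 CPM (113506 to 115945) in the progressed tumor. That is 13.5%, 11.5% and 11.5% of the UMIs of these cells. Cma1, Tpsb2, Mcpt4 and Cpa3 were among the 7 most counted genes of the cluster in each tumor, out of 8057, 13583 and 12201 genes detected.

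Cma1, also known as mast cell protease 5, stood at 54400 CPM in the untreated, 35640 CPM in the regressed and 32477 CPM in the progressed tumor. Every mast cell had a UMI of it. It was highest in the untreated tumor, and the 3 intervals did not overlap. Mcpt4, the main chymase of connective tissue mast cells, was at 23378 CPM (22175 to 24630), 20589 CPM (20101 to 21085) and 25054 CPM (24488 to 25629). Its order between the regressed and untreated tumors turned, from a log2 ratio of -0.18 to 0.08, without the mast cell with the most protease UMIs in each tumor. Cma2 was far lower, at 678 CPM (487 to 920), 915 CPM (814 to 1024) and 636 CPM (548 to 733). Cma1 was thus counted 80.2, 39.0 and 51.1 times as often as its neighbour Cma2. Counts of transcript ends do not grow with transcript length, but capture may differ between genes. The end of Cma2 also shares a run of 118 bases with Mcpt9, and reads with several mappings were not counted. The longest run that the end of Cma1 shares with another of these genes was 17 bases. Cma2 may therefore be counted too low and these ratios may be too high, so they compare counts and not molecules. The transcribed pseudogene Mcpt-ps1 (chr14:55949809-55952371) overlaps the span of Cma2. It had 41, 282 and 253 UMIs in Mastcells, and how reads in the overlap were counted is not known.

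Scaled to total UMIs, the tryptase Tpsb2 was the steadiest of the abundant members, at 37144, 36497 and 38793 CPM. Tpsab1, listed as a pseudogene, was counted in all 3 tumors, at 2085 CPM (1737 to 2482) in the untreated, 3291 CPM (3098 to 3493) in the regressed and 4460 CPM (4223 to 4706) in the progressed tumor. Its level was lowest in the untreated and highest in the progressed tumor, with no overlap of the intervals. Tpsb2 was counted 17.8 (14.9 to 21.5), 11.1 (10.4 to 11.8) and 8.70 (8.22 to 9.21) times as often as Tpsab1. Cpa3, the carboxypeptidase that trims peptides in the granule, was at 16611, 17258 and 12868 CPM, lowest in the progressed tumor.

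Mcpt1, the mucosal member, was at 132 CPM (57.1 to 261) in the untreated, 152 CPM (113 to 200) in the regressed and 148 CPM (108 to 199) in the progressed tumor. These intervals overlap. Mcpt4 was counted 177 (89.4 to 410), 135.5 (103 to 183) and 169 (126 to 233) times as often as Mcpt1, from promoters that share most of their bases. A UMI of Mcpt1 was seen in 5 of 16, 34 of 106 and 27 of 85 mast cells, with at most 3, 5 and 4 UMIs in a cell. Outside the cluster it was seen in 0 of 4079, 3 of 3620 and 1 of 4764 cells, whose median depths were 4501, 2670 and 4608.5 UMIs. Mcpt9 was at 182 CPM (90.9 to 326), 274 CPM (220 to 336) and 286 CPM (228 to 354), and was seen in 8, 45 and 48 mast cells.

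The connective tissue members, Cma1, Mcpt4, Tpsb2, Tpsab1 and Cpa3, made up 99.3% (Clopper-Pearson interval 99.1 to 99.4), 98.8% (98.7 to 98.9) and 99.1% (99.0 to 99.2) of protease UMIs in Mastcells. Mcpt1, Mcpt9 and Cma2 shared the rest. All 5 connective tissue members were seen together in 16 of 16, 102 of 106 and 81 of 85 cells. The other mucosal chymase, Mcpt2, was not a member of the set and had 9, 41 and 61 UMIs, in 2, 25 and 24 cells. In 1 progressed cell Mcpt2 reached 27 UMIs. Mrgprb2, a receptor known from connective tissue mast cells, was at 662, 690 and 689 CPM in the same cells.

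**Figure D1:**
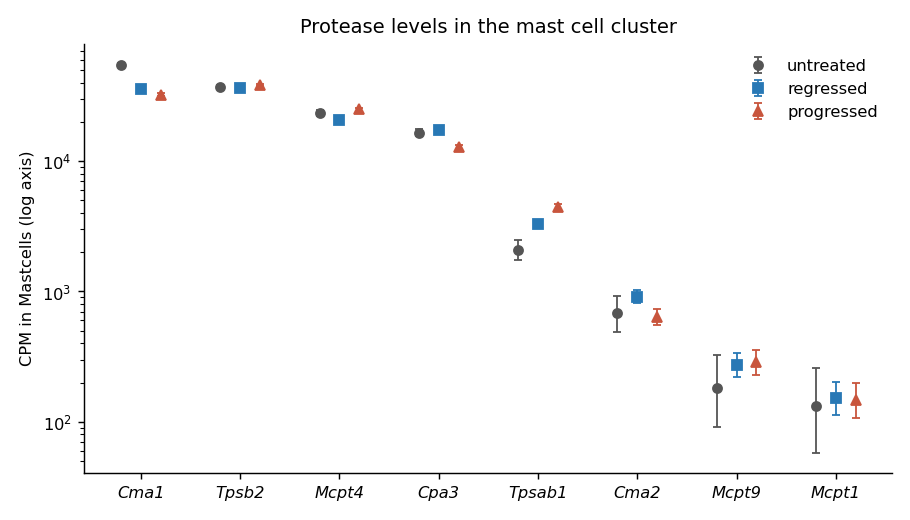
Level of each protease in the Mastcells cluster, in CPM on a log axis, for the untreated (circles), regressed (squares) and progressed (triangles) tumor, with exact Poisson 95% intervals that cover counting error only. Cma1, Tpsb2, Mcpt4 and Cpa3 lie between 12868 and 54400 CPM in every tumor, Tpsab1 between 2085 and 4460 CPM, and Cma2, Mcpt9 and Mcpt1 below 1000 CPM.

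Levels set between tumors on a log2 scale moved little. All 8 members had at least 20 UMIs over each pair of tumors. In the regressed against the untreated tumor 0 of the 8 were higher and 0 lower by at least 2-fold, where 20% and 7.23% of 3140 genes were. Members ranged from -0.61 (Cma1) to 0.66 (Tpsab1) with a median of 0.13, beside 0.07 over all genes. In the progressed against the untreated tumor 1 member was higher and 0 were lower, where 12.8% and 8.02% of 2617 genes were. That member was Tpsab1, at 1.10 (exact conditional binomial interval 0.83 to 1.37), and Cma1 was the lowest at -0.74 (-0.80 to -0.69). In the progressed against the regressed tumor 0 were higher and 0 lower, where 4.89% and 12.2% of 4543 genes were, and the members ran from -0.53 (Cma2) to 0.44 (Tpsab1). These comparisons share tumors, and the members' calls were no more frequent than those of all genes. The shares over all genes depend on the minimum count. In the regressed against the untreated tumor the share higher was 30.9% with at least 5 UMIs and 49.1% with no minimum. The members had 58 (Mcpt1) to 15016 (Cma1) UMIs in that pair, so most were counted far above the minimum of 20. The shares over all genes are thus not matched to the members in counts. Scaled by trimmed mean of M values (TMM) factors, 20.6% of genes were higher and 3.63% lower in the progressed than in the untreated tumor, and 7.88% and 8.32% in the progressed against the regressed.

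The summed level in the untreated tumor rested in part on 1 cell. The log2 ratio of the sum was -0.23 (-0.27 to -0.20) in the regressed and -0.23 (-0.27 to -0.20) in the progressed against the untreated tumor. With equal weight per cell it was -0.26 and -0.23. Of the 8136 protease UMIs in the 16 untreated mast cells, 29.2% came from a cell with 2377 protease UMIs among 9896, 986 of them Cma1 and 12 Tpsab1. Without the cell with the most protease UMIs in each tumor, a setting added after the data were seen, the sums were 113938, 113056 and 112449 CPM and the ratios -0.01 and -0.02. The ratio of Cma1 in the regressed tumor was then -0.39 and that in the progressed -0.53. The ratio of Tpsab1 in the progressed against the untreated tumor was then 0.99, which is within 2-fold. With TMM factors, which shift all log2 ratios by 0.14, 0.34 and 0.19, the sum was 0.11 higher in the progressed than in the untreated tumor, the opposite direction, and Tpsab1 stood at 1.43.

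From cell to cell the share of proteases spanned a wide range within each tumor. In the untreated tumor they took 2.45% to 35.5% of a mast cell's UMIs, with a median of 11.2%. In the regressed tumor the range was 0.289% to 19.0% with a median of 10.5%, and in the progressed 2.24% to 22.0% with a median of 10.98%. The medians lay closer together than the sums did. In cells with at least 100 protease UMIs the median share of Cma1 among them was 41.5%, 30.9% and 28.2%, and that of Tpsab1 1.01%, 2.76% and 3.62%, so the order of the tumors for these members was the same in the median cell as in the sums. Single cells differed more than tumors did, with Cma1 between 14.7% and 54.3% and Tpsab1 between 0% and 12.8% of protease UMIs in cells of the progressed tumor.

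**Figure D2:**
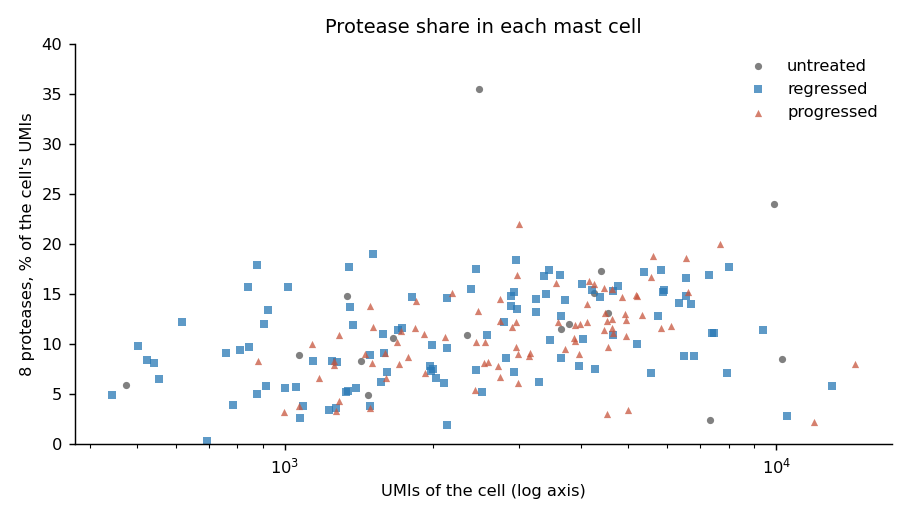
Each point is 1 mast cell, with its UMIs on a log axis and the share of them that belongs to the 8 proteases in percent, for the untreated (circles), regressed (squares) and progressed (triangles) tumor. The untreated tumor has 16 points, 2 of which, at 35.5% and 24.0%, lie above every cell of the other tumors.

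Other mast cell genes were read from lists of 35 genes in all, chosen with earlier results known. Of these 28, 30 and 30 had enough UMIs in the 3 pairs of tumors. In the regressed against the untreated tumor 2 were higher and 4 lower by at least 2-fold, in the progressed against the untreated 3 and 1, and in the progressed against the regressed 2 and 0. Over all genes the shares were those given above, 20% and 7.23%, 12.8% and 8.02%, and 4.89% and 12.2%. Their medians were 0.05, 0.03 and 0.15 on the log2 scale.
Among other granule proteases, Prss34, which is known from basophils and mast cells, was at 1324 CPM (80 UMIs in 5 cells) in the untreated, 3.04 CPM (1 UMI) in the regressed and 128 CPM (38 UMIs in 2 cells) in the progressed tumor. Of the Prss34 UMIs in Mastcells, 1 cell held 41 of the 80 in the untreated tumor and 1 cell held 21 of the 38 in the progressed. Outside Mastcells Prss34 had 23, 14 and 3 UMIs. The tryptase Tpsg1 was at 662, 295 and 380 CPM.
Srgn, the core protein of serglycin, which holds the proteases in the granule, was at 5592 CPM in the untreated, 2732 CPM in the regressed and 5375 CPM in the progressed tumor. Ctsc, which activates granule serine proteases, was at 199, 158 and 168 CPM. Cells of the other clusters had Srgn at 779, 513 and 140 CPM, and Ctsc at 152, 142 and 105 CPM, near its level inside. Latexin (Lxn), an inhibitor of carboxypeptidase A enzymes, was at 182, 277 and 320 CPM, with intervals that overlap.
Alox5ap, needed for leukotriene synthesis, was at 232 CPM (127 to 389) in the untreated, 1112 CPM (1001 to 1232) in the regressed and 999 CPM (889 to 1119) in the progressed tumor. Outside Mastcells its level was 354, 201 and 93.2 CPM. Fcer1a, the IgE-binding chain of the IgE receptor, was at 5377, 3103 and 3128 CPM, while its signalling partner Ms4a2 was at 910, 939 and 821 CPM.

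Outside the Mastcells cluster the proteases were counted in most clusters, with 0 UMIs in 3, 1 and 3 of the 23 others, and were highest in the regressed tumor. Summed over all other cells they reached 16.9 CPM (15.3 to 18.7) in the untreated, 560 CPM (547 to 574) in the regressed and 62.7 CPM (59.8 to 65.8) in the progressed tumor. The regressed tumor stood 33.1-fold and the progressed 3.70-fold above the untreated, log2 ratios of 5.05 (4.90 to 5.20) and 1.89 (1.73 to 2.05). Mastcells exceeded the other cells 7948-fold, 205-fold and 1829-fold. The cluster was made from these same genes among others, so this is a description. At least 10-fold higher in Mastcells were 1.99%, 1.29% and 1.90% of the genes with 20 UMIs in a tumor.

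The level outside was set beside the amount of mast cell RNA in each library. Of all protease UMIs in a library, 4.41% (3.98 to 4.86) lay outside Mastcells in the untreated, 15.2% (14.9 to 15.6) in the regressed and 4.67% (4.46 to 4.90) in the progressed tumor. Mast cells gave 0.272%, 2.65% and 1.10% of the UMIs of the libraries. Per percent of UMIs from mast cells, the other cells held 62.2, 211 and 56.9 CPM of proteases, so the untreated and progressed tumors were alike by this measure and the regressed was higher.

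The spread over clusters was narrow in the regressed and progressed tumors. Over the 20 other clusters with at least 10 cells in the regressed tumor the sum ran from 364 CPM (Stroma4) to 1231 CPM (MitoHigh), and to 807 CPM (Neutrophils) without MitoHigh. Over 17 clusters of the progressed tumor it ran from 50.8 CPM (Stroma3) to 113 CPM (NK_T), and over 20 of the untreated from 3.86 CPM (Dividing, 2 UMIs) to 160.5 CPM (MitoHigh, 3 UMIs). In the 14 clusters that held 10 or more cells in each of the 3 tumors, the order was untreated, progressed, regressed in all 14, and the 3 intervals were apart in 9. The Tumor1 cluster, for example, was at 13.6 CPM (2.80 to 39.7), 530 CPM (420 to 659) and 66.4 CPM (50.02 to 86.4), and Macrophages at 24.0, 612 and 95.6 CPM.

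**Figure D3:**
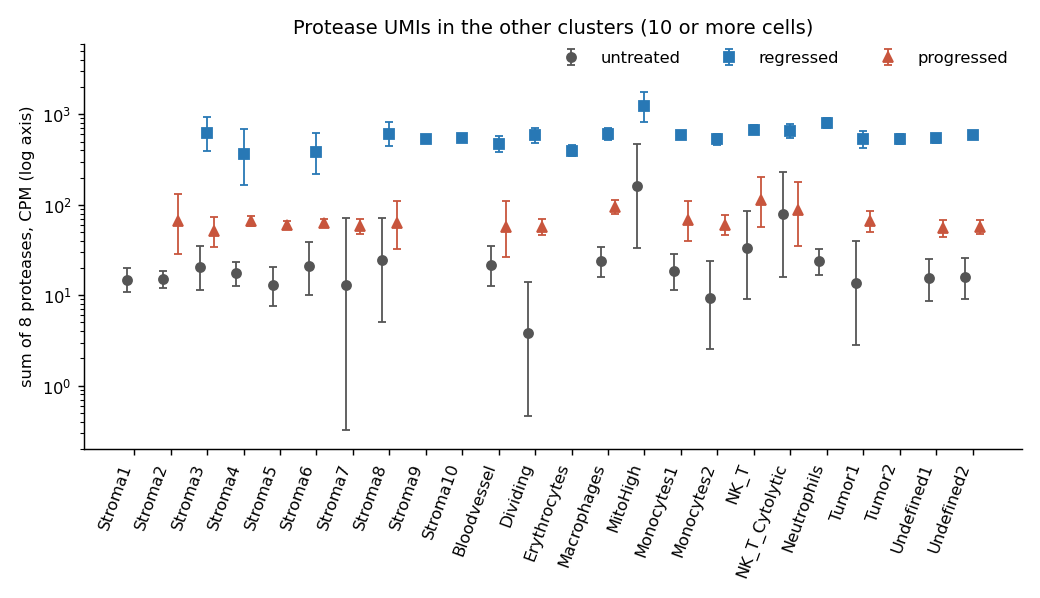
Sum of the 8 proteases in each cluster other than Mastcells with at least 10 cells, in CPM on a log axis, for the untreated (circles), regressed (squares) and progressed (triangles) tumor, with exact Poisson 95% intervals for counting error. The regressed tumor lies at 364 to 1231 CPM in every cluster shown, above the progressed at 50.8 to 113 CPM and the untreated at 3.86 to 160.5 CPM.

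Cells were thinned to 1000 UMIs to set aside depth, which left out 91, 686 and 53 shallower cells outside Mastcells. A protease UMI was then seen in a median over clusters of 1.42%, 44.5% and 6.24% of cells, against all of the thinned mast cells. Before thinning the clusters ranged from 4.65% to 20% in the untreated, 30% to 94.7% in the regressed and 20.8% to 47.6% in the progressed tumor. By member, thinned cells outside Mastcells had a UMI of Tpsb2 in 0.502%, 18.4% and 1.95%, and of Cma1 in 0.652%, 14.2% and 1.63%.

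Protease UMIs outside Mastcells took a larger share of shallow cells than of deep ones. In the regressed tumor the sum went from 833 CPM (752 to 920) in cells under 1000 UMIs to 518 CPM (490 to 547) in cells of 8000 or more. In the progressed tumor it went from 341 CPM (191 to 563) to 54.9 CPM (50.6 to 59.5), and in the untreated from 87.4 CPM (32.1 to 190) to 14.1 CPM (11.7 to 16.8). The number of protease UMIs per cell still grew with depth, from 0.570 to 6.29 in the regressed tumor. The order of the 3 tumors was the same in each of the 5 classes of depth.

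**Figure D4:**
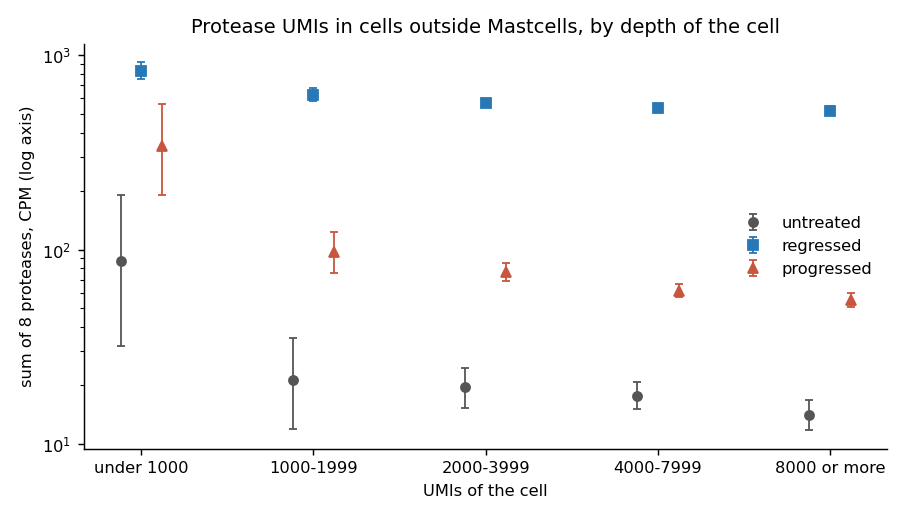
Sum of the 8 proteases in cells outside Mastcells, in CPM on a log axis, for cells grouped by their own UMIs, in the untreated (circles), regressed (squares) and progressed (triangles) tumor, with exact Poisson 95% intervals for counting error. In every class the regressed tumor is highest and the untreated lowest, and the regressed level goes from 833 CPM in the shallowest cells to 518 CPM in the deepest.

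The make-up of protease UMIs was set side by side inside and outside Mastcells. In the progressed tumor Cma1 was 28.3% of protease UMIs inside and 26.8% (24.7 to 29.0) outside, Tpsb2 33.8% and 33.6%, Mcpt4 21.8% and 21.9%, and Cpa3 11.2% and 10.5%. In the untreated tumor, with 375 protease UMIs outside, Cma1 was 40.4% inside and 37.3% (32.4 to 42.4) outside, and Cpa3 was 12.3% (11.6 to 13.1) inside and 16.8% (13.2 to 21.0) outside. In the regressed tumor Cma1 was 31.1% (30.6 to 31.6) inside and 25.9% (24.9 to 27.0) outside, and Tpsb2 31.8% (31.4 to 32.3) inside and 36.2% (35.0 to 37.3) outside. Outside, the share of Cma1 was largest in the untreated tumor, and the intervals of the regressed and progressed tumors overlapped.

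Tpsab1 took a larger share outside than inside in all 3 tumors. It was 1.55% (1.29 to 1.84) of protease UMIs inside and 3.47% (1.86 to 5.86) outside in the untreated, 2.87% (2.71 to 3.05) and 4.81% (4.32 to 5.35) in the regressed, and 3.89% (3.68 to 4.10) and 6.58% (5.44 to 7.88) in the progressed tumor. The intervals inside and outside were apart in each, but in the untreated tumor only just. Without the mast cell with the most protease UMIs its share inside the untreated Mastcells was 1.98% (1.64 to 2.37), which overlaps the interval outside. In the regressed tumor its share was 4.95% in Stroma clusters and 4.67% in the other clusters, and 5.05% and 4.84% without cells of 10 or more protease UMIs. Cma2 went the other way in the regressed tumor, from 0.798% (0.711 to 0.893) inside to 0.162% (0.0811 to 0.290) outside, with 11 UMIs there. In the progressed tumor it was 0.554% (0.478 to 0.639) inside and 0.239% (0.0652 to 0.611) outside, with 4 UMIs. In the untreated it was 0.504% (0.362 to 0.683) inside, with 0 UMIs outside, which allows up to 0.979%, or 0.135 CPM at 3 counts. The intervals overlapped in these 2 tumors. What sets these shares was not tested.

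**Figure D5:**
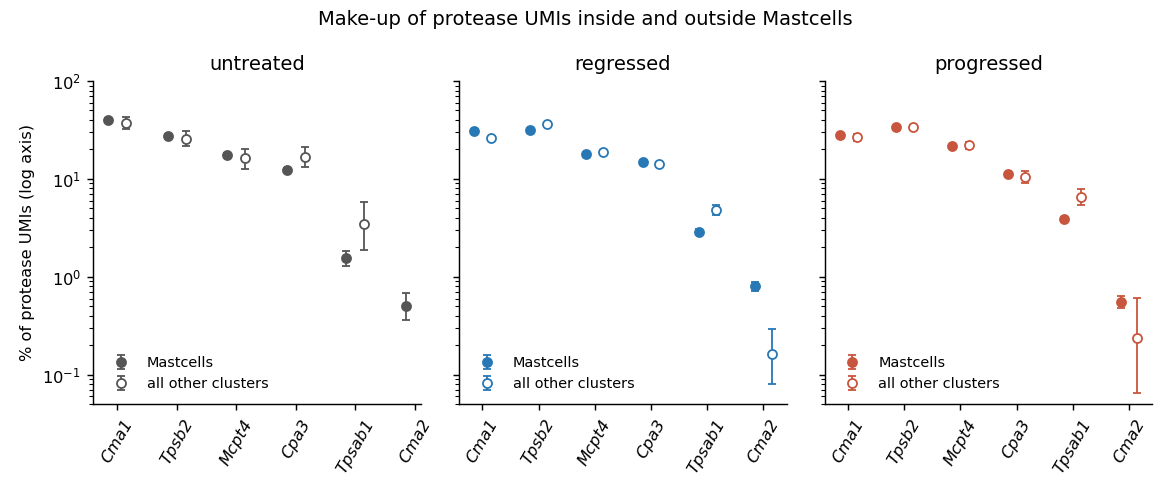
Share of protease UMIs taken by 6 of the members, in percent on a log axis, inside Mastcells (filled) and in all other clusters (open) of the untreated, regressed and progressed tumor, with Clopper-Pearson 95% intervals. Tpsab1 is higher outside in each tumor (3.47%, 4.81% and 6.58% against 1.55%, 2.87% and 3.89%), and Cma2, which had 0 UMIs outside in the untreated tumor and no open point there, is lower in the regressed tumor.

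Other mast cell genes were also found outside, at fractions of their level inside that were set beside that of the proteases. In the regressed tumor the outside level was 0.489% of the inside level for the 8 proteases, 0.502% for Ms4a2, 0.561% for Tpsg1 and 0.659% for Fcer1a. For Kit and Il1rl1, which other cell types are known to use, it was 1.34% and 1.11%. For Cyp11a1, Gata2, Slc18a2 and Hdc it was 1.32%, 1.14%, 0.817% and 2.52%, and for Mcpt2 0.266%. Among the members it was 0.0995% for Cma2 and 0.820% for Tpsab1. These genes thus had no common fraction. In the progressed tumor it was 0.0547% for the proteases, 0.0549% for Ms4a2 and 0.0900% for Fcer1a. Tpsg1, Gata2, Slc18a2 and Kit were there at 0.109%, 0.100%, 0.115% and 0.274%, and Mcpt2 at 0.0183% (1 UMI outside). In the untreated tumor the fraction was 0.0126% for the proteases, 0.0136% for Tpsg1, 0.0248% for Ms4a2, 0.0269% for Fcer1a and 0.318% for Gata2. Mcpt2 had 0 UMIs outside there. RNA of other cell types, not scaled to the amount of its source, followed other orders of tumors. The neutrophil gene S100a8 in Stroma clusters was at 340, 281 and 2.62 CPM. The haemoglobin gene Hbb-bs there was at 31.4, 1339 and 0.455 CPM. The collagen gene Col1a1 in macrophage, monocyte and NK/T clusters was at 389, 313 and 542 CPM. Over the whole libraries each of these genes had the same order of tumors. S100a8 was at 9333, 1621 and 45.5 CPM there, Hbb-bs at 942, 13269 and 31.0 CPM, and Col1a1 at 4481, 2226 and 5122 CPM. These unscaled levels therefore cannot be set against the scaled ones of the proteases. Whether protease UMIs outside came from free RNA, from droplets with more than 1 cell or from the cells themselves was not tested.

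Cells outside Mastcells with 10 or more protease UMIs were seen in the regressed tumor alone, 37 of 3620 cells, against 0 of 4079 and 0 of 4764. Their median was 15520 UMIs and 725 CPM of proteases, and they held 8.17% of the protease UMIs outside. The highest level was in 2 cells of Stroma10, at 73643 and 18457 CPM. These held 38 protease UMIs among 516 and 39 among 2113, mostly Tpsb2 (21 and 17) and Cpa3 (9 and 11), with 0 and 3 UMIs of the mast cell markers other than Hdc. A cell of the Neutrophils cluster held 11 Cpa3 UMIs, 1 each of Cma1 and Mcpt4, 29 UMIs of those mast cell markers, and 29 UMIs of the basophil genes Mcpt8 and Prss34. These cells were chosen after their values were seen.

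Across the 60 pairs of cluster and tumor with at least 10 cells, the 10 genes whose log2(CPM + 10) was most like that of the summed proteases included Fcer1a (Pearson r = 0.87), Tph1, Mrgprb1, Mrgprb2, Ms4a2, Atp8b5, Cd200r3, Cyp11a1 and Rprm (0.80). The points share 3 libraries, so r is a description. Each member was also set against the other 7. With the 3 Mastcells points left out, r over 57 points was 0.95 for Tpsb2, 0.93 for Mcpt4, 0.91 for Cpa3, 0.90 for Cma1 and 0.76 for Tpsab1. It was 0.38 for Cma2, 0.14 for Mcpt1 and -0.01 for Mcpt9, which had at most 11 UMIs outside in any tumor.

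Reads could be split between near copies for some members. In the last 300 bases of the longest transcript of each gene, the longest run shared with another of these genes was 196 bases for Mcpt9 and 118 for Cma2, each with the other, and 61 for Mcpt4 with Cma2. It was 23 for both Tpsb2 and Tpsab1, 21 for Mcpt1, 17 for Cma1 and 10 for Cpa3. Only reads that map to 1 place were counted, so the levels of Cma2 and Mcpt9 are uncertain and may be too low. No other feature held the same counts as any member in every cell.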

How the data were processed

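Single cells of 3 tumors, 1 per group, were captured with 10x Chromium 3′ chemistry. According to the study's methods the authors aligned reads with GSNAP to GRCm38, kept reads with a single mapping, counted UMIs from reads that overlap exons in sense, and removed cells under 300 UMIs. The deposited tables hold raw UMI counts per Entrez gene and cell, and a deposited cell table holds total counts with the name of each of 25 clusters, which the authors made with Seurat 2.2.0 and named by marker genes. Those names are other labels, not measurements, and were used as given.

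Counts were summed over the cells of a cluster in each tumor and divided by all UMIs of those cells (CPM). The gene table sums exceeded the deposited totals per cell by 5.17% (untreated), 6.09% (regressed) and 4.42% (progressed), and the sums were used. Symbols were found for 31049 of 36530 features in the RefSeq table of GRCm38.p6, which also gave positions and promoters. The promoters of 3 members, Cma2, Tpsb2 and Tpsab1, were not matched. Transcript ends came from the longest GENCODE transcripts. No doublets were called or removed here, and 0 cell names were shared between libraries.

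Intervals at 95% are exact Poisson for CPM, exact conditional binomial for ratios and Clopper-Pearson for shares, and cover counting error only. A count of 0 allows 3 counts. No test was run, as there is 1 tumor per group. Ratios between tumors were called at 2-fold among genes that had 20 or more UMIs in the pair. Thinning drew 1000 UMIs per cell. The ratio intervals were run on simulated Poisson counts. These hold no spread between cells, so the run cannot show how the intervals cover differences in the real data. Depth per library was 22202192 (untreated), 12413268 (regressed) and 26948940 UMIs (progressed).

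The genes named are the 8 members, 35 genes of mast cell lists, markers of cell types and the 10 genes most like the summed members, among genes with at least 50 UMIs in Mastcells, over units of at least 10 cells. Of these 10 genes 1, and 1 allele shared by all the mice, are not reported here. The members and lists were chosen with earlier results of these data known. Alternatives were the deposited totals, cells of at least 1000 UMIs, equal weight per cell, leaving out the 5% deepest cells, leaving the proteases out of the total, thinning, TMM factors and other minimum counts. Leaving out the mast cell with the most protease UMIs, and splitting the clusters for the make-up, were chosen after seeing the data. Python 3.11.15, numpy 2.4.6, pandas 2.3.3, scipy 1.17.1, matplotlib 3.10.9, R 4.3.3 and edgeR 4.0.16 (TMM factors only) were used.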

Additional observations from a re-analysis of the deposited data

Results flagged for a closer look

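The summed proteases differed between tumors in opposite directions inside and outside the Mastcells cluster. In the regressed against the untreated tumor the log2 ratio was -0.23 in Mastcells and 5.05 in all other cells. In the progressed against the untreated tumor it was -0.23 in Mastcells and 1.89 in all other cells. These values stand out because the direction inside and outside was opposite, with both counting intervals apart from 0. The difference was not tested, as each group is 1 tumor. Without the mast cell with the most protease UMIs in each tumor, the ratios in Mastcells were -0.01 and -0.02. In the summed counts most of the difference inside thus came from 1 untreated cell. With equal weight per cell, that cell included, the ratios were -0.26 and -0.23. With TMM factors the ratio in Mastcells of the progressed against the untreated tumor was 0.11, the same direction as outside.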

How the results depend on the processing

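No paired analysis was possible because each group is 1 tumor, and for the same reason no replicate could be left out. Protease levels below are given in CPM, for the untreated, regressed and progressed tumor where 3 values stand together. In Mastcells the sum was 138603, 118140 and 117737 with the deposited totals, 127399, 106429 and 108854 with equal weight per cell, 155549, 129452 and 129587 with the proteases left out of the total, and 113938, 113056 and 112449 without the top mast cell. Without the 5% deepest cells it was 144737 in the untreated and 120208 in the regressed, and thinned to 1000 UMIs it was 109539 (regressed) and 110120 (progressed). The log2 ratio of the sum against the untreated tumor was -0.27 (regressed) and -0.32 (progressed) without the deepest cells, -0.29 and -0.28 thinned, -0.0112 and -0.0190 without the top cell, and -0.0880 and 0.11 with TMM factors, the last of which turned the direction. In the progressed against the regressed tumor it was 0.0325 with equal weight, -0.0558 without the deepest cells and 0.19 with TMM factors. For single members TMM turned the sign of Tpsb2 (0.12) in the regressed and Cma2 (0.24) in the progressed against the untreated tumor, and of Cma1 (0.06) and Mcpt1 (0.15) in the progressed against the regressed. The top cell turned that of Mcpt4 (0.08) and Tpsb2 (0.12) in the regressed and of Cma2 (0.19) in the progressed against the untreated tumor. With TMM factors Tpsb2 was at 0.12 (regressed against untreated), 0.40 (progressed against untreated) and 0.28 (progressed against regressed). Cpa3 was then at 0.20, -0.03 and -0.23, so which abundant member was steadiest depended on the scaling. The connective tissue share was 99.5% (untreated) and 99.1% (regressed) with equal weight, 99.5% and 99.1% thinned, and 98.6% (regressed) and 98.9% (progressed) without Cpa3. Outside Mastcells the sum was 20.03, 630.5 and 71.4 with equal weight and 19.3, 587 and 69.4 thinned, and in the regressed tumor 595 with the deposited totals and 544 without cells of 10 or more protease UMIs. Genes past 2-fold, higher and lower, numbered 2587 and 1093 (regressed against untreated), 1746 and 1085 (progressed against untreated) and 861 and 2042 (progressed against regressed) with at least 5 UMIs, and 6852 and 2163, 5408 and 2511, and 2291 and 4562 with no minimum. With TMM factors they numbered 540 and 95 in the progressed against the untreated tumor, and 358 were higher in the progressed against the regressed. Apart from the settings' own construction, the cause was not tested. Of the 72 values for single proteases under alternatives, 48 moved by less than their counting interval. The untreated tumor had 16 mast cells and 375 protease UMIs outside them, which limits the precision of its values.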
